A study of Arabidopsis thaliana with 12 samples.

Results

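The 10 genes described here make or control the plant cuticle. They were taken by locus identifier from the 33610 genes of the leaf count table, and all 10 were found there. Their names are *CER1* (AT1G02205), *CER3* (AT5G57800), *KCS6* (AT1G68530, also *CER6*), *KCS1* (AT1G01120), *KCS10* (AT2G26250, also *FIDDLEHEAD*), *WIN1* (AT1G15360, also *SHN1*), *LACS1* (AT2G47240), *LACS2* (AT1G49430), *CYP86A4* (AT1G01600) and *BDG* (AT1G64670). Leaf RNA of wild type *Arabidopsis thaliana* (Columbia) and of *trm5-1* was sequenced in 3 libraries per genotype, labelled as replicates 2, 3 and 4 and as 20 days old, although a figure legend of the study gives seedlings of 10 days. Both genotypes share the Columbia background, and no library had a treatment. The *trm5-1* plants carry 1 homozygous T-DNA insertion in *TRM5* (AT3G56120), the gene of a tRNA methyltransferase that acts beside the anticodon, so the mutant is represented by a single allele.

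The cuticle is the waxy, water-repellent skin that epidermal cells lay down over leaves, stems and flowers. Its frame is cutin, a polyester of hydroxylated fatty acids and glycerol, and its seal is wax, which is largely alkanes, alcohols and related products of very-long-chain fatty acids. Fatty acids are activated to acyl-CoAs, lengthened by an elongase complex or hydroxylated, and the products are exported through the plasma membrane by ABC transporters. Many of these genes are active in the epidermis, and most strongly while organs expand.

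Library totals ran from 14954658 to 26927531 counts, and 19408 genes passed the filter on low counts and were tested. *TRM5* itself was at 13.3 to 22.8 CPM (a normalized read count, defined below) over the wild type libraries, against 2.75 to 4.92 over the mutant ones, a log2 fold change of -2.25 (SE 0.31, adjusted p = 0.0226 in the edgeR test), which matched all 6 labels. Wild type replicate 2 and wild type replicate 3 stood apart from each other. In wild type, replicate 4 lay between replicates 2 and 3 for all 10 members, and in *trm5-1* for 8 of 10. Over all genes, replicate 4 lay between the other two libraries for 1696 of 1698 genes that differed more than 4-fold between them in wild type. In *trm5-1* this held for 257 of 257 such genes. The wild type replicate 4 values followed a weighted sum of replicates 2 and 3 (weights 0.786 and 0.564), with a median absolute residual of 0.0397 of the fitted value over 14800 genes, and the *trm5-1* values did likewise (weights 0.755 and 0.425, residual 0.0400, 14302 genes). Whether replicate 4 was an independent sample was not tested. Every test below treats the libraries as independent, and if they were not, each SE and p given is too small. Without replicate 4 of both genotypes, edgeR called 0 of the 10 cuticle genes and 0 of all genes. As lower, 2 members had an unadjusted p under 0.05 in that fit, as did 1113 of 19255 genes.

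Of the 10 cuticle genes, 4 were called lower in *trm5-1* by the quasi-likelihood F test of edgeR, called where the Benjamini-Hochberg adjusted p over all genes was under 0.05. These were *CER1*, *LACS2*, *CYP86A4* and *BDG*. Over all tested genes, 7.15% were called lower and 4.3% higher. None of the 10 was called higher, 0 had an unadjusted p under 0.05 in that direction (13.6% of all genes), and DESeq2 also called 0 higher (9.11%). As lower, 7 had an unadjusted p under 0.05 (19.2%). The genotypes did not overlap, with every *trm5-1* library below every wild type library, for 6 of the 10 genes, where this held for 20% of all tested genes. Of the 10 genes, 9 were tested, and *WIN1* did not pass the filter. *CYP86A4* passed it through its wild type libraries alone. It is counted among the 4 calls, the 7 with an unadjusted p under 0.05 and the 6 without overlap, and in none of these is it support for a fall. Counted without genes that the *trm5-1* libraries alone would not have carried past the filter, a choice made after the data were seen, 3 of 8 members were called lower, beside 1111 of 18159 genes. The median log2 fold change of those 8 was -0.83, beside 0.033 over all genes counted in that way. With edgeR, 5 genes were called lower without wild type replicate 2 (21.5% of all genes), 0 without wild type replicate 3 (2.68%), 0 without wild type replicate 4 (0%), and 0 without *trm5-1* replicates 2, 3 and 4 in turn (0.312%, 0.0447% and 0%). In those edgeR fits without calls, 4 to 6 members had an unadjusted p under 0.05 as lower. This held for 2438 to 3368 of all genes, of 19607 to 20186 tested. As higher, 1 member had such a p without *trm5-1* replicate 2 (2368 of 20186 genes). Without wild type replicate 2, 1 member did so as higher (4852 of 20199 genes). DESeq2 on all 6 libraries called 6 lower (14.7%). Scaling by RLE or upper quartile and dropping the filter each left 4 (7.2%, 7.62% and 4.36% of all genes). With at least 10 counts in every library (5.76%) and with limma at pseudocounts of 1 and 10 (5.48% and 5.66%), 3 were called. *CYP86A4* is also in the counts of DESeq2, RLE, upper quartile, no filter and without wild type replicate 2. In none of these is it support for a fall.

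**Figure D1:**
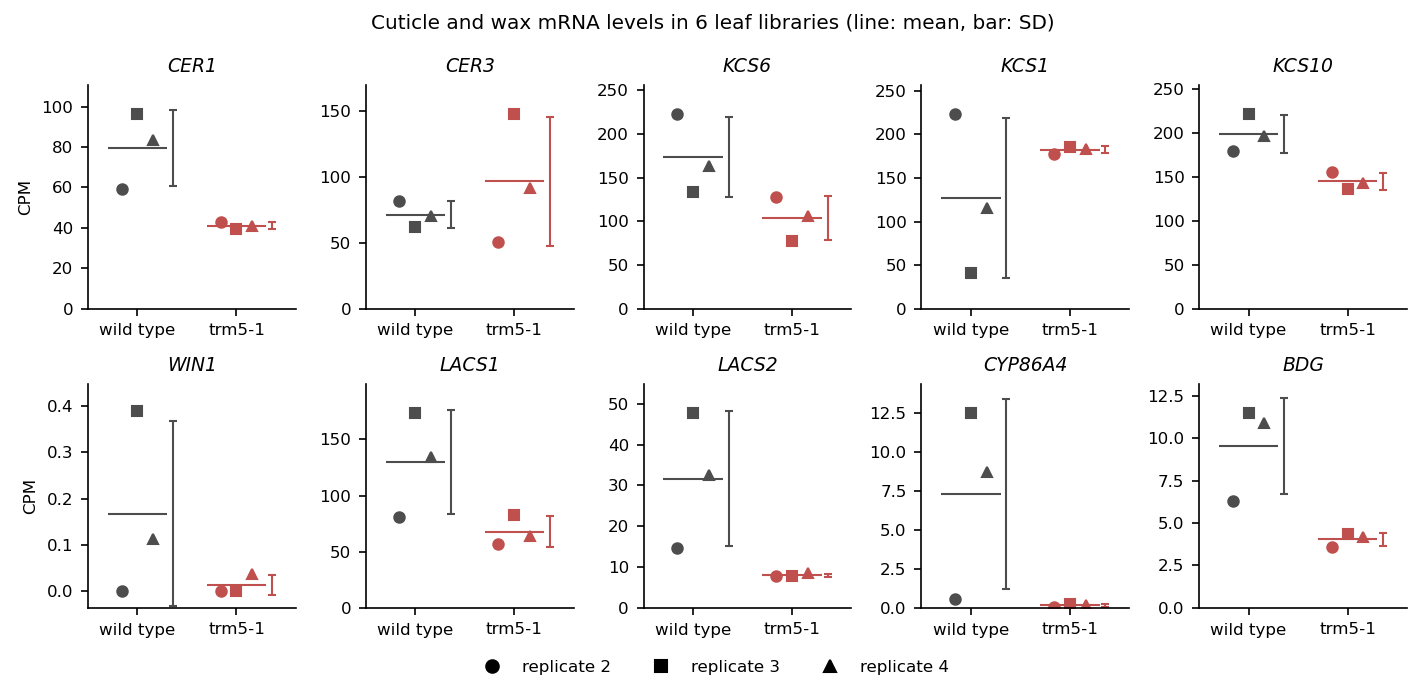
Level of each of the 10 cuticle and wax mRNAs in CPM (scaled by TMM) on the y axis of each panel, for wild type (grey) and *trm5-1* (red), with 1 point per library, a line at the mean and a bar for the SD. All *trm5-1* points lie below all wild type points for *CER1*, *KCS6*, *KCS10*, *LACS2*, *CYP86A4* and *BDG*, and the wild type points of *KCS1* run from 41.5 to 224.

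Levels are given below as CPM, the read count of a gene relative to the total of its library, on library sizes scaled by the TMM method, and log2 fold changes are *trm5-1* against wild type with their standard error (SE). Gene positions are those of TAIR10.1. In bulk RNA, fewer epidermal cells and less RNA per cell cannot be told apart, and this holds for every value that follows.

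*KCS6*, *KCS1* and *KCS10* encode 3-ketoacyl-CoA synthases, the condensing enzymes that set which chain lengths an elongase makes. *KCS6* is the principal condensing enzyme of wax precursors. It lies on the minus strand at chr1:25712414-25715024. Wild type replicates 2, 3 and 4, in this order here and below, had 223, 134 and 163 CPM, and the *trm5-1* libraries 128, 77.7 and 106 CPM. All mutant libraries were thus below all wild type libraries, with wild type replicate 3 only just above the highest mutant library. The log2 fold change of -0.74 (SE 0.28) had an adjusted p of 0.127 in the edgeR test and was not called.

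*KCS10*, whose loss lets organs fuse through their epidermis, lies on the minus strand at chr2:11170416-11173278. It was measured at 179.5, 222 and 197 CPM in wild type and 156, 137 and 144 CPM in *trm5-1*. The groups did not overlap, and the difference was small, with a log2 fold change of -0.45 (SE 0.17, adjusted p = 0.125 in the edgeR test). Its 95% interval ran from -0.87 to -0.04. DESeq2 called it lower (adjusted p = 0.0264).

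The L1 box, an element bound by the epidermal homeodomain proteins ATML1 and PDF2, was looked for in the 250 bases before and 50 bases after each annotated gene start of TAIR10.1 (RefSeq), as TAAATGCA or TAAATGTA on either strand. It was found in 1 of the 10 members, *KCS10*, in 8 of 42 other wax and cutin genes, and in 5.1% of 27443 protein-coding genes. The GCC box core GCCGCC, to which proteins of the WIN1 family can bind, was found in 0 of the 10 members, in 1 of the 42 other genes, *GPAT6*, and in 2.57% of all. Of the 8, *CER26*, *GPAT8* and *ABCG12* were called lower by edgeR, and AT5G33370 was not tested. *KCS9*, *ABCG11*, *MYB96* and *MYB94* were not called, at log2 fold changes of 0.21, -0.26, 0.38 and -0.67. A match is a description of the letters only. The stretches of *KCS10*, of *CER26* and of *GPAT6* are shown because the first is the single match among the members and the others are matches upstream of genes called lower, with the motif in capitals, 5′ to 3′ on the strand of the gene:
KCS10, chr2:11173314-11173343, minus strand, L1 box 54 bases before the start: aaaaattgtaaTAAATGCAaacataagatc
CER26, chr4:8016667-8016696, minus strand, L1 box 103 bases before the start: cacttctatttTAAATGCAgaaatagacat
GPAT6, chr2:15955907-15955936, minus strand, GCC box core on the opposite strand 172 bases before the start: taactataaaacGGCGGCgcgtgggggcct

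*KCS1*, a condensing enzyme of broad substrate range, lies on the minus strand at chr1:57164-59215. Its wild type levels were 224, 41.5 and 116 CPM, and its *trm5-1* levels were 178, 186 and 183 CPM. The mutant libraries were close to each other and sat inside the wide wild type range, below replicate 2 and above replicates 3 and 4. It had a log2 fold change of 0.52 (SE 0.55, adjusted p = 0.541 in the edgeR test), with a 95% interval from -0.82 to 1.86, so a change in either direction was not detectable. It was above 0 under all alternatives tried, from 0.10 to 1.23.

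Among the 9 other genes of elongation that were examined, 4 fell (7.15% of all genes) and none was called higher (4.3%). *CER2* and *CER26* encode proteins that let the KCS6 elongase make its longest products. *CER2* had 18.7, 26.0 and 23.1 CPM in wild type and 8.46, 9.38 and 10.2 CPM in *trm5-1*, a log2 fold change of -1.28 (SE 0.17, adjusted p = 0.0228 in the edgeR test). *CER26* had 36.9, 48.1 and 46.8 CPM against 20.9, 12.4 and 16.5 CPM, with a log2 fold change of -1.40 (SE 0.23, adjusted p = 0.0273 in the edgeR test). In both genes the lowest wild type library was well above the highest mutant library. *KCS5*, the closest relative of *KCS6*, showed 9.19, 17.0 and 13.8 CPM in wild type and 4.33, 1.83 and 3.41 CPM in the mutant (log2 fold change -2.07, SE 0.39, adjusted p = 0.0327 in the edgeR test). *CER10*, the enoyl-CoA reductase of the elongase, fell less (log2 fold change -0.76, SE 0.15, adjusted p = 0.0367 in the edgeR test). *CER2* overlaps 2 genes on the opposite strand, AT4G24520 by 96 bases and the long non-coding RNA AT4G07275 by 316 bases, and *CER10* overlaps 1 by 27 bases. Reads there cannot be assigned without strand. The count of 4 became 6 without wild type replicate 2 (21.5% of all genes), 2 without wild type replicate 3 (2.68%), and 0 without any other single library.

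*LACS1* and *LACS2* encode long-chain acyl-CoA synthetases, which activate fatty acids for both arms of the pathway. LACS1 favours the very long chains of wax and LACS2 the hydroxylated acids of cutin. *LACS2* lies on the plus strand at chr1:18290942-18295905. It fell from 14.7, 47.7 and 32.6 CPM in wild type to 7.82, 7.82 and 8.45 CPM in *trm5-1*. Every mutant library was below the lowest wild type library, and the mutant libraries were nearly equal while the wild type libraries were not. The log2 fold change was -1.98 (SE 0.41, adjusted p = 0.0389 in the edgeR test, 0.000196 to 0.544 over the alternatives), a level 3.95-fold higher in wild type.

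*LACS1* lies on the plus strand at chr2:19392497-19397907. It had 80.8, 173 and 135 CPM in wild type and 56.5, 82.8 and 64.3 CPM in *trm5-1*. The groups overlapped, since *trm5-1* replicate 3 was above wild type replicate 2. Its log2 fold change of -0.93 (SE 0.31) had an adjusted p of 0.0979 in the edgeR test, of 0.0144 without wild type replicate 2, and of 0.0394 with DESeq2.

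*CER1* and *CER3* encode the 2 partners of the complex that turns very-long-chain acyl-CoAs into alkanes, the most abundant wax class of leaves. *CER1* lies on the plus strand at chr1:418416-422579. It fell from 59.3, 96.5 and 83.3 CPM in wild type to 42.9, 39.6 and 40.9 CPM in *trm5-1*. The mutant values lay in a narrow band below the lowest wild type library, replicate 2. The log2 fold change was -0.96 (SE 0.20, adjusted p = 0.0400 in the edgeR test, 0.00105 to 0.572 over the alternatives), a level 1.94-fold higher in wild type.

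*CER3* lies on the plus strand at chr5:23420184-23424117. It had 82.2, 61.9 and 70.3 CPM in wild type and 50.4, 148 and 91.6 CPM in *trm5-1*. Here the spread was in the mutant, with *trm5-1* replicate 2 below all wild type libraries and the other two above them. *CER3* had a log2 fold change of 0.44 (SE 0.38, adjusted p = 0.461 in the edgeR test), with a 95% interval from -0.49 to 1.37. Per length, the ratio of *CER1* to *CER3* within a library was 0.520, 1.12 and 0.853 over the wild type libraries against 0.614, 0.193 and 0.322 over the mutant ones, and the genotypes overlapped.

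Of the 4 other genes of alkane and alcohol formation, 3 were tested and 0 were called by edgeR, with 0 at an unadjusted p under 0.05. DESeq2 called 1 lower (14.7% of all genes), which was not among these 3. The smallest p among them was that of *WSD1*, which makes wax esters in stems, at 4.30, 6.70 and 5.27 CPM in wild type and 3.20, 4.69 and 3.96 CPM in *trm5-1* (log2 fold change -0.46, SE 0.26, adjusted p = 0.267 in the edgeR test). *MAH1* (AT1G57750), the midchain alkane hydroxylase that makes secondary alcohols and ketones of stem wax, did not pass the filter and was singled out after its values were seen. Its counts were 1, 1055 and 604 over the wild type libraries and 0, 1 and 1 over the mutant ones. Wild type replicate 2 was thus as low as the mutant, and the counts came from wild type replicates 3 and 4 alone.

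*CYP86A4* and *BDG* act on the cutin side. *CYP86A4* encodes a cytochrome P450 that hydroxylates the end of fatty acid chains for cutin, known best from flowers. It lies on the plus strand at chr1:218834-221286, and *GPAT4*, another cutin gene, lies 355 bases beyond it. *CYP86A4* had 8, 353 and 234 counts in wild type and 1, 7 and 5 counts in *trm5-1*, or 0.593, 12.5 and 8.75 CPM against 0.0492, 0.267 and 0.185 CPM. Wild type replicate 2 was far closer to the mutant libraries than to the other wild type libraries, though still above them. Its fitted log2 fold change of -5.37 is given as a description, because no *trm5-1* library reached the filter's minimum of 0.392 CPM. That minimum is on library totals before TMM scaling. Limma on the normalized values put the log2 fold change at -4.45 with a pseudocount of 1 and at -3.04 with 10.

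*BDG* encodes an epidermal protein of the alpha/beta hydrolase family that is needed for an intact cutin layer. It lies on the minus strand at chr1:24030743-24033674 and shares 38 bases with a gene on the opposite strand, AT1G64660, which had at most 346 counts. *BDG* fell from 6.30, 11.5 and 10.9 CPM in wild type to 3.59, 4.35 and 4.19 CPM in *trm5-1*. The groups were apart, and the mutant libraries again varied less than the wild type libraries. The log2 fold change was -1.24 (SE 0.27, adjusted p = 0.0417 in the edgeR test, 0.00114 to 0.575 over the alternatives).

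The 12 other cutin genes examined gave the most calls of any role. Of the 10 that were tested, all 10 had a log2 fold change below 0 with genotypes that did not overlap (20% of all tested genes). At an adjusted p under 0.05, 7 fell in edgeR (7.15% of all genes). Among the 10, AT4G24140 passed the filter through its wild type libraries alone, so its direction and lack of overlap are no support for a fall. The 7 calls were all among the other 9. *CYP77A6* and *CYP86A8* hydroxylate cutin acids within and at the end of the chain. They had log2 fold changes of -2.90 (SE 0.66, adjusted p = 0.0441) and -2.30 (SE 0.54, adjusted p = 0.0458) in the edgeR test. *GPAT4*, *GPAT6* and *GPAT8* encode acyltransferases that join the acids to glycerol. *GPAT8* had 31.6, 54.4 and 47.8 CPM in wild type and 13.8, 8.16 and 13.0 CPM in *trm5-1* (log2 fold change -1.93, SE 0.29, adjusted p = 0.0248 in the edgeR test). *GPAT6* changed by -2.06 (SE 0.42) and *GPAT4* by -0.82 (SE 0.16) on the log2 scale, with adjusted p-values of 0.0375 and 0.0361 in the same edgeR test.

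*HTH* (*HOTHEAD*), which acts in forming dicarboxylic cutin acids, had 29.6, 87.3 and 67.4 CPM in wild type and 10.3, 12.2 and 10.6 CPM in *trm5-1* (log2 fold change -2.48, SE 0.40, adjusted p = 0.0266 in the edgeR test). *DCR*, an acyltransferase of the cutin of floral ridges, had 1.19, 61.4 and 37.8 CPM against 0.837, 0.763 and 0.408 CPM (log2 fold change -5.65, SE 1.34, adjusted p = 0.0471 in the edgeR test). As in *CYP86A4* and *MAH1*, wild type replicate 2 was close to the mutant libraries and the difference came from wild type replicates 3 and 4. The 7 cutin calls became 10 without wild type replicate 2 (21.5% of all genes), 2 without wild type replicate 3 (2.68%) and 0 without any other single library. These 10 include AT5G33370 and *CYP86A7*, which the filter on all 6 libraries had dropped, so the set of genes was not the same. With limma, or with at least 10 counts required in every library, the calls became 4. DESeq2 called 11 (14.7% of all genes), of which 9 were among the 10 tested by edgeR. AT4G24140 is among the 10 called without wild type replicate 2 and among the 9 of DESeq2. In neither is it support for a fall.

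Export genes were examined as a further list of 6, of which 3 fell (7.15% of all genes). *ABCG12* (*CER5*) and *ABCG32* encode ABC transporters of wax and of cutin precursors, and *LTPG2* a lipid transfer protein anchored at the cell surface. *ABCG12* had 85.6, 105 and 99.7 CPM in wild type and 66.6, 43.2 and 54.1 CPM in *trm5-1* (log2 fold change -0.83, SE 0.20, adjusted p = 0.0497 in the edgeR test). *ABCG32* went from 149, 186 and 164 CPM to 109, 96.5 and 106 CPM (log2 fold change -0.68, SE 0.16, adjusted p = 0.0486 in the edgeR test). *LTPG2* had 36.4, 27.3 and 29.99 CPM against 13.5, 7.59 and 12.7 CPM (log2 fold change -1.47, SE 0.26, adjusted p = 0.0295 in the edgeR test). In *LTPG2*, wild type replicate 2 was the highest library, so the difference did not come from replicates 3 and 4 alone. The count of 3 became 5 without wild type replicate 2 (21.5% of all genes), 1 without wild type replicate 3 (2.68%) and 0 without any other single library. It was 1 with no filter (4.36%) or with at least 10 counts in every library (5.76%).

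*WIN1* encodes an AP2/ERF transcription factor whose overexpression makes leaves glossy with wax and which activates cutin genes. It lies on the plus strand at chr1:5283268-5284736. It had 0, 11 and 3 counts in wild type and 0, 0 and 1 counts in *trm5-1*. At this depth it was close to undetected in both genotypes, and no fold change is given. Its relative *SHN2* had 0, 25 and 14 counts in wild type and 3, 0 and 3 counts in the mutant, and was also not tested. Of 11 other regulators, 9 were tested and 0 were called by edgeR. Of these, 2 had an unadjusted p under 0.05 as lower (19.2% of all genes) and 0 as higher (13.6%), and DESeq2 called 2 lower (14.7%). The smallest p was that of *MYB30*, an activator of elongase genes, with 19.9, 27.1 and 23.7 CPM in wild type and 15.6, 14.9 and 16.2 CPM in *trm5-1* (log2 fold change -0.60, SE 0.16, adjusted p = 0.0573 in the edgeR test).

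Over the 42 other wax and cutin genes, 37 were tested. Of these, edgeR called 14 lower and 0 higher (7.15% and 4.3% of all genes), with 22 and 0 at an unadjusted p under 0.05 (19.2% and 13.6%). The filter was passed through wild type alone by 2 of the 37, and all 14 calls were among the other 35. DESeq2 called 23 of the 42 lower (14.7%) and 0 higher (9.11%), and 20 of these 23 were among the 37. AT4G24140, which passed the filter through wild type alone, is among the 22, the 23 and the 20. It is no support for a fall in any of these counts. The median log2 fold change of the 37 was -0.78, beside -0.00094 over all tested genes, of which 7.15% were called lower. These lists were drawn up with earlier results of the same libraries known, so the counts are a description.

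**Figure D2:**
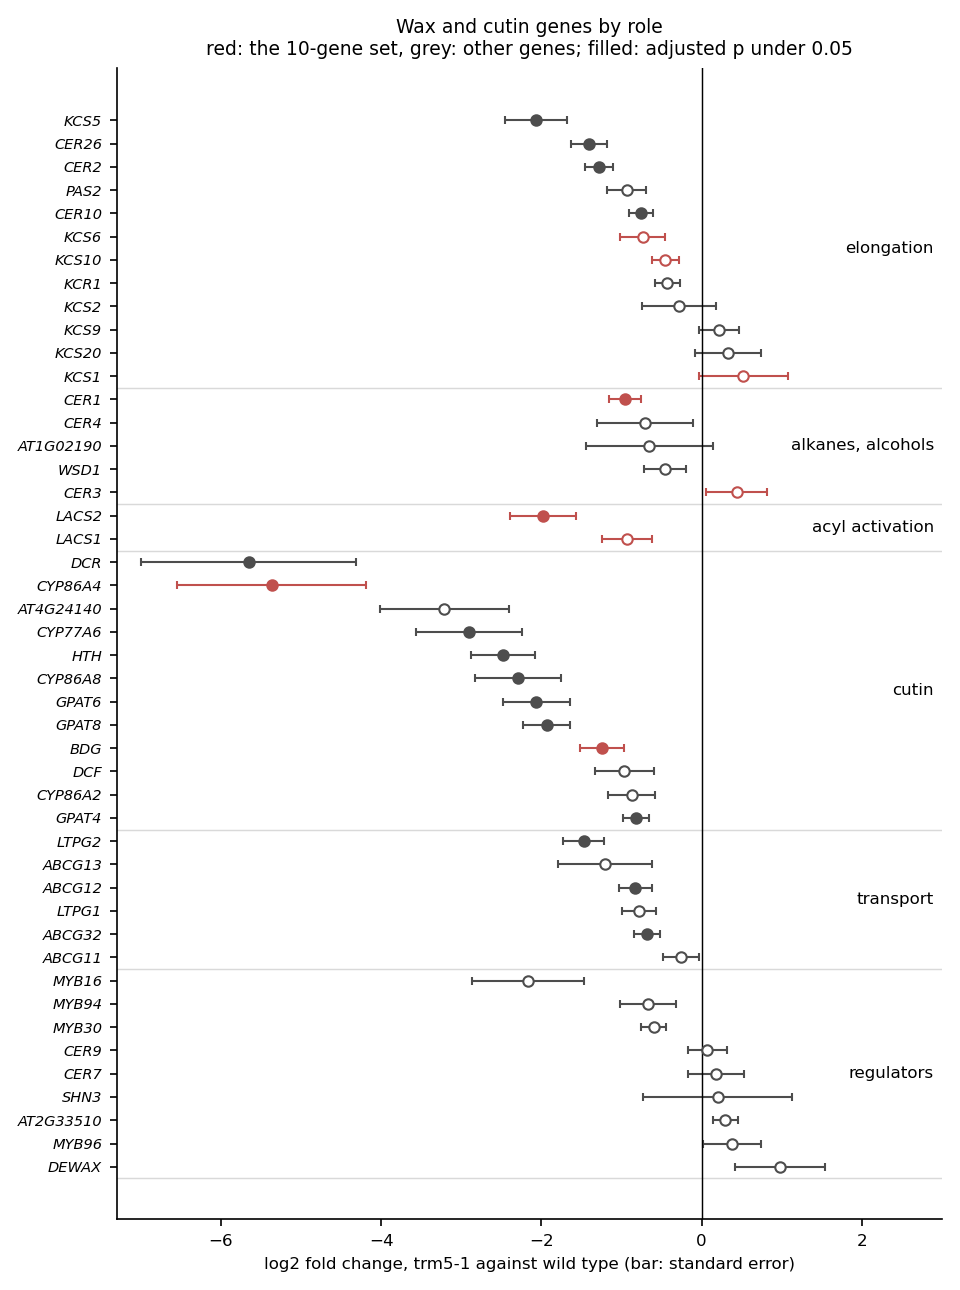
Log2 fold change in *trm5-1* against wild type (x axis, bars show the SE) of the 9 tested members (red) and of 37 other tested wax and cutin genes (grey), grouped by role, with filled points for an adjusted p under 0.05 in edgeR. All cutin points lie left of 0, down to -5.65 for *DCR*. The elongase, alkane and alcohol, and regulator points lie on both sides. *CYP86A4*, AT4G24140 and AT1G02190 passed the filter through wild type alone, so their place left of 0 is no support for a fall.

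Set per length (CPM per kilobase of exon, RPKM), the order of the 10 wild type levels was *KCS10*, *KCS6*, *KCS1*, *LACS1*, *CER3*, *CER1*, *LACS2*, *BDG*, *CYP86A4* and *WIN1*, with means from 88.5 to 0.143 RPKM. *KCS10*, *KCS6* and *KCS1* were not apart beyond their spread, at 79.6 to 98.6, 51.2 to 85.5 and 20.2 to 109 RPKM over the wild type libraries. *LACS1* (26.1 to 55.9 RPKM), *CER3* (23.9 to 31.7 RPKM) and *CER1* (16.5 to 26.9 RPKM) also overlapped in sequence. *LACS1* overlapped *KCS6* as well, and *KCS1* overlapped *LACS1*, *CER3* and *CER1*. *BDG* (3.39 to 6.18 RPKM) overlapped both *LACS2* (5.12 to 16.6 RPKM) and *CYP86A4* (0.255 to 5.38 RPKM). *CER1* just overlapped *LACS2*, and *CYP86A4* overlapped *LACS2* and *WIN1* (0 to 0.333 RPKM). In *trm5-1*, *KCS1* stood first with 86.7 to 90.5 RPKM, above *KCS10* with 60.7 to 69.2 RPKM and *KCS6* with 29.8 to 49.2 RPKM, and these ranges did not overlap.

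Ratios of 2 members within a library do not depend on how the libraries are scaled. The per-length ratio of *KCS1* to *KCS6* was 1.28, 0.394 and 0.905 in the wild type libraries against 1.76, 3.04 and 2.20 in the mutant ones, with no overlap. That of *LACS1* to *LACS2* was 5.09, 3.36 and 3.82 in the wild type libraries against 6.68, 9.79 and 7.04 in the mutant ones, also without overlap. The ratios of *KCS1* to *KCS10* and of *KCS6* to *KCS10* overlapped between the genotypes. Of 5 ratios formed between members of the same role, 2 thus separated the genotypes, and no test was run on them. Among single genes, 3874 of 19408 lay wholly lower in *trm5-1* and 3829 wholly higher. The share of all gene pairs whose ratio separates the genotypes was not computed, so the 2 are a description only.

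The 2 wild type libraries that stood apart gave different sizes to nearly every difference. On the scale of log2(CPM + 1), the mean of *trm5-1* was below wild type replicate 2 by 0.52 for *CER1* and below replicate 3 by 1.21. For *LACS2* these differences were -0.80 and -2.43, for *CYP86A4* -0.45 and -3.53, and for *BDG* -0.53 and -1.31. *KCS6* had the opposite order, with -1.09 against replicate 2 and -0.36 against replicate 3. *KCS1* changed sign, from -0.29 against replicate 2 to 2.11 against replicate 3. Against wild type replicate 2 alone, all 3 *trm5-1* libraries were lower for 7 of the 10 members, where this held for 35.3% of all tested genes. *CYP86A4*, which passed the filter through wild type alone, is among these 7. The exceptions were *CER3*, *LACS1* and *WIN1*.

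**Figure D3:**
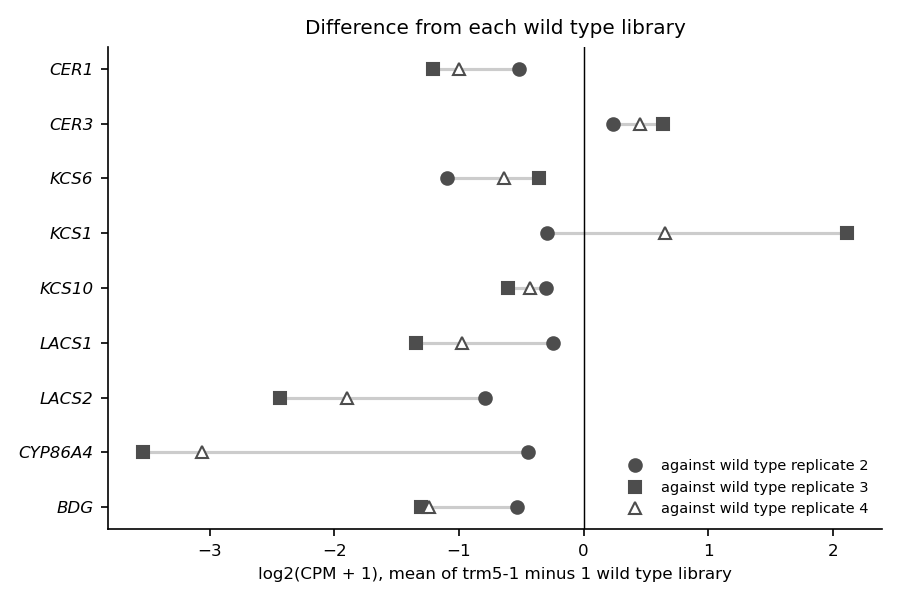
Difference on the scale of log2(CPM + 1) between the mean of the 3 *trm5-1* libraries and each wild type library (x axis) for the 9 tested members (y axis), with circles for wild type replicate 2, squares for replicate 3 and open triangles for replicate 4. Triangles lie between circles and squares, *KCS1* runs from -0.29 to 2.11, and 7 genes lie left of 0 against every wild type library. *CYP86A4*, which passed the filter through wild type alone, is among these 7.

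Markers of several cell types moved with the same libraries. All 6 epidermis markers were detected in every wild type library. Their summed level was 389.8 to 830.3 CPM in wild type and 266 to 335 CPM in *trm5-1*. In edgeR, 4 of the 5 tested had an unadjusted p under 0.05 as lower (19.2% of all genes). At an adjusted p under 0.05, edgeR called 0 of the 5 (7.15% of all genes were called lower). DESeq2 called 4 of these 5 lower, and 5 of the 6 in all (14.7% of all genes). The homeodomain genes that specify epidermis had 41.8, 118 and 88.5 CPM (*ATML1*) and 77.9, 150.4 and 125 CPM (*PDF2*) in wild type, against 28.3 to 33.8 and 54.5 to 67.5 CPM in *trm5-1*. *ACR4*, a receptor kinase of the epidermis, was at 4.59 to 14.8 CPM in wild type and 3.09 to 4.08 CPM in *trm5-1*, and *LTP1*, a lipid transfer protein, at 248 to 514 and 164 to 215 CPM. *HDG2*, a relative of *ATML1*, overlapped between the genotypes, at 14.8 to 17.6 and 13.0 to 16.6 CPM. *PDF1*, a protodermal gene of young organs, had 5, 524 and 324 counts in wild type and 0, 1 and 7 counts in *trm5-1*.

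The 4 dividing cell markers summed to 9.78, 87.8 and 57.3 CPM in the wild type libraries against 5.41, 2.86 and 4.37 CPM in the mutant ones. Of these markers, 2 of 4 fell in edgeR (7.15% of all genes) and 4 in DESeq2 (14.7%). *CYCB1;2*, called by DESeq2 only, passed the edgeR filter through wild type alone. The 4 flower markers summed to 2.44, 8.40 and 6.17 CPM in wild type and 0.886, 0.610 and 0.889 CPM in *trm5-1*. Of these, *AP1*, which marks floral meristems, had 1, 72 and 47 wild type counts, and all 3 mutant libraries were at 0. Wild type replicates 3 and 4 were the high libraries for young and floral tissue markers and for *CYP86A4*, *DCR* and *MAH1* alike. The part of tissue make-up in the results for the cuticle genes was not tested.

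The 4 mesophyll markers summed to 15919.9 to 36545 CPM in wild type and 4875 to 11776 CPM in *trm5-1*, with 1 of 4 called lower in edgeR and 2 in DESeq2. Beside the calls in this and the next lists, 7.15% of all genes were called lower by edgeR and 14.7% by DESeq2. Guard cell markers summed to 33.6 to 35.6 and 22.3 to 26.8 CPM, with 1 of 4 called lower by both tools, and vasculature markers to 188 to 341 and 277 to 293 CPM, with 2 of 4 called lower by both. Trichome markers summed to 11.9 to 12.7 and 4.08 to 13.9 CPM, with 0 of 3 tested called by edgeR and 2 of 4 by DESeq2. The summed level of the 10 cuticle genes was 801 to 870.4 CPM in wild type and 624 to 683 CPM in *trm5-1*. As for the guard cell and trichome markers, and unlike the other 5 lists given here, this sum was close to level over the wild type libraries. Within it, *KCS1*, *KCS6* and *CER3* were highest in wild type replicate 2, and the other members in replicate 3.

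**Figure D4:**
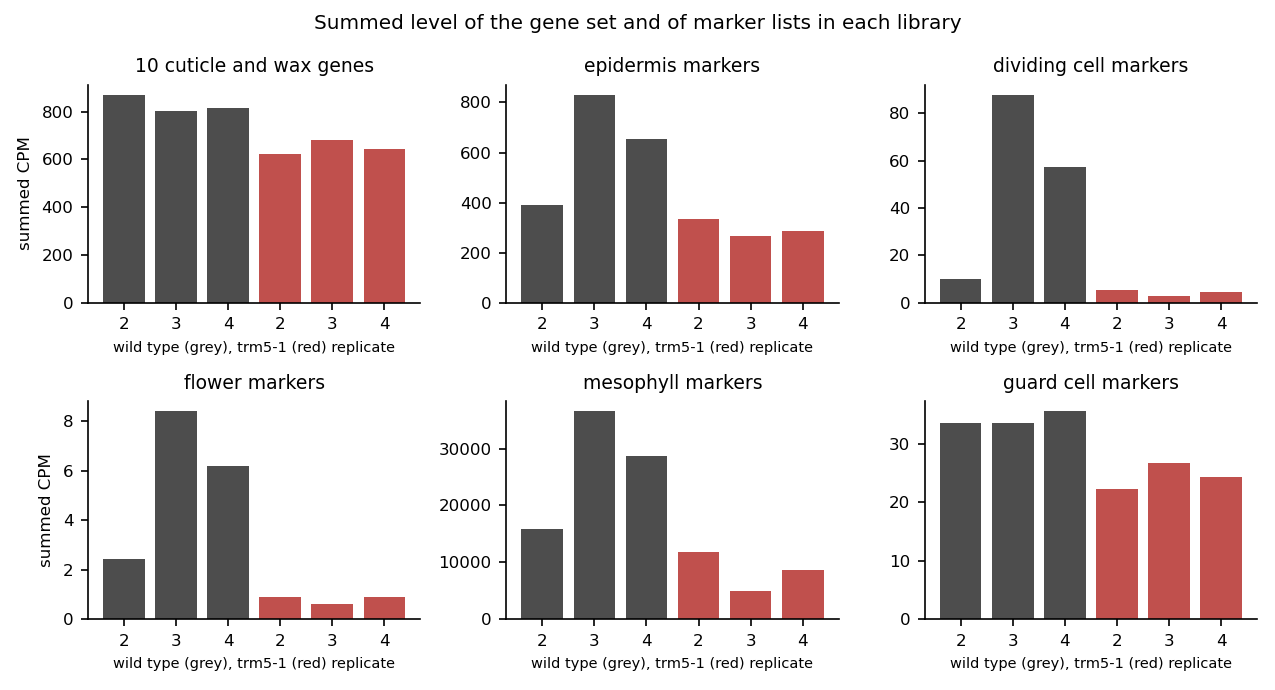
Summed level in CPM (y axis, starting at 0) of the 10 cuticle and wax genes and of 5 marker lists in each library, for wild type (grey) and *trm5-1* (red) replicates 2, 3 and 4. Dividing cell, flower, epidermis and mesophyll markers are highest in wild type replicate 3, while the sum of the 10 genes is 801 to 870.4 CPM in all wild type libraries.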

How the data were processed

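The members and gene lists were chosen with earlier results of these data known. For the 6 leaf libraries, the authors trimmed reads with Trim Galore (0.4.2), mapped them to TAIR10 with STAR (2.5.3) and took gene counts from featureCounts (strand and other settings not given in the sources used here). They deposited raw counts and a second table of the same counts divided by 1 size factor per library (a normalized signal), used here only with limma. Sequencing depth ran from 14954658 to 26927531 counts. The test was that of edgeR 4.0.16 (R 4.3.3) (filterByExpr, TMM, quasi-likelihood fit, genotype only, Benjamini-Hochberg adjustment over 19408 genes). The SE is the size of the log2 fold change divided by the square root of F. Pseudocounts of 1 were added for log2 levels. RPKM used merged exon lengths of TAIR10.1. Alternatives were DESeq2 1.42.0, limma 3.58.1 (pseudocounts of 1 and 10), RLE and upper quartile normalization, no filter, at least 10 counts in every library, a log2 fold change beyond 1, the replicate block and left-out libraries. Each test was checked on simulated counts. All 10 members are named. Other wax and cutin genes are named by rule if called, or by the smallest p of a role without calls. A few more are named for a motif match, for how they met the filter, or for their values. Markers are given by list. The tRNA libraries were not used here. Figures were drawn with matplotlib 3.10.9.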

Additional observations from a re-analysis of the deposited data

How the results depend on the processing

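No gene named by rule changed direction under any alternative. The 4 members called lower stayed between 3 and 6 under the other tools, normalizations, filters and fold threshold. They lay between 0 and 5 when libraries were left out. Without replicate 4 of both genotypes, 0 were called, with 2 lower at an unadjusted edgeR p under 0.05 (1113 of 19255 genes). *CYP86A4*, which passed the filter through wild type alone, is in every count of 4 or more and is no support there. The 14 lower pathway genes became 23 with DESeq2 (20 of them among the 37 tested by edgeR), and 9 with at least 10 counts in every library. They lay between 0 and 25 with libraries left out. AT4G24140, which passed the filter through wild type alone, is among the 23 and the 25 and is no support there. Over all genes, 1387 lower and 835 higher became 3229 and 2004 with DESeq2, and 0 to 4334 and 0 to 3263 with libraries left out. *TRM5* had log2 fold changes of -2.42 to -2.03 with libraries left out, and was no longer called in 5 of these 7 fits.

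With the replicate number as a block, edgeR called 0 members, 0 pathway genes, and 0 genes lower or higher in all. As lower, 6 members had an unadjusted p under 0.05 in that fit, as did 2968 of 19408 genes. *TRM5* stayed at -2.25 (adjusted p = 0.110). Deviations of same-numbered libraries correlated at -0.0240, 0.000311 and 0.0674, and not every library correlated best with its own number. These values cannot decide whether libraries were paired by number, because replicate 4 of each genotype lay close to a weighted sum of replicates 2 and 3. Upper quartile scaling moved the median log2 fold change of all genes to -0.12, and *KCS1* and *CER3* stayed above 0. Without the filter on low counts, *WIN1* had an adjusted p of 0.186 in edgeR. Depth limits *WIN1* most, since 3 counts in the smallest library are 0.201 CPM.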

Other observations

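Suberin is a relative of cutin that is laid down in roots and at wounds. Of the 4 root markers, *CYP86A1* and *GPAT5*, which make suberin monomers, had 6, 2 and 10 counts and 5, 5 and 11 counts in *trm5-1* replicates 2, 3 and 4. In wild type they had 1, 0 and 0 counts and 0 in each library. The root markers *IRT1* and *COBL9* had at most 4 counts in any library. None of the 4 passed the filter on low counts. Without it, edgeR gave adjusted p-values of 0.118 for *CYP86A1* and 0.0559 for *GPAT5*, and DESeq2 gave 0.0724 and 0.0104, so that *GPAT5* passed the threshold in DESeq2 only. These genes were singled out after their values were seen.

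*DEWAX*, a repressor of wax genes, had 98.6, 72.6 and 85.7 CPM in wild type and 56.1, 299.9 and 152 CPM in *trm5-1* (log2 fold change 0.98, SE 0.56, edgeR adjusted p = 0.270). *CER3* had its highest level in the same library, *trm5-1* replicate 3, and its lowest in the same library, *trm5-1* replicate 2. *MYB96*, an activator of wax genes, was at 189, 74.1 and 122 CPM in wild type and 190.5, 136 and 174 CPM in the mutant. Its lowest library, wild type replicate 3, was also the lowest of *KCS1*. The 2 genes were chosen after their values were seen.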
